A study of Danio rerio with 18 samples.

Results

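Levels of 4 messenger RNAs were followed in zebrafish brains that carried 0, 1 or 2 copies of a mutant mfn2 allele. They encode a transglutaminase (tgm2l, ENSDARG00000093381), a secreted metalloprotease (adamts8, ENSDARG00000007709), a membrane-bound serine protease (tmprss4b, ENSDARG00000012860) and a tetraspanin (tspan36, ENSDARG00000024540). These 4 genes, of 32057 in the deposited table, were chosen by gene ID because an earlier look at the same libraries had found tgm2l, adamts8 and tspan36 raised and tmprss4b lowered in homozygous mutants. Every comparison that involves homozygous mutants therefore describes the values that chose the genes and carries no test for them. Fold changes and 95% intervals given for these comparisons take no account of the choice. Their sizes may be inflated by it, and the intervals are not read as tests. Heterozygotes against wild types, and differences among families, were not used in the choice and were tested. The wild-type libraries did enter the choice, so the comparison of heterozygotes with wild types is not independent of it.

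The 3 genotypes were homozygous mutants (Hom, mfn2 -/-), heterozygotes (Het, mfn2 +/-) and wild types (WT, mfn2 +/+), all descended from parents heterozygous for the hu3528 allele. Each genotype was represented by 6 libraries, from 6 families, and each library was made from whole brains of 2 females and 2 males pooled at 4 months of age. A family was the brood of a separate pair of parents from 1 mating. Siblings were genotyped at 2.5 months and then kept in tanks by genotype on shared recirculating water, so genotype and tank cannot be told apart. All 3 genotypes were kept in this way.

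Mitofusin 2, the product of mfn2, is a GTPase of the outer mitochondrial membrane that acts in the fusion of mitochondria, and inherited changes in the human gene cause an axonal neuropathy, Charcot-Marie-Tooth disease type 2A. Transglutaminases join glutamine to lysine side chains and so crosslink proteins, many of them in the extracellular matrix. ADAMTS proteases are secreted enzymes that cut matrix proteoglycans and other matrix proteins, type II transmembrane serine proteases cut proteins at the cell surface, and tetraspanins are 4-pass membrane proteins that organise other surface proteins.

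Values are read counts scaled to the size of the library as CPM, with a correction for library composition (TMM), called normalized CPM below. They are not divided by gene length, so they compare libraries for a gene and not genes with each other. Total counts ran from 21945070 to 42897654 per library. The targeted gene itself averaged 29.0 ± 3.22 normalized CPM in Hom, 82.9 ± 18.5 in Het and 120 ± 23.0 in WT (SD, n = 6 each). In family 2 it went against the labels, since the library labelled Het had 117 and the library labelled WT had 75.2 normalized CPM, while the other 5 WT libraries lay between 119.9 and 140.2. Neuron markers, as a check of the tissue, summed to 10850 to 12230 normalized CPM in 5 Hom libraries and to 14460 in Hom of family 3. Their sums were 14140 to 14940 in Het and 13520 to 15010 in WT, above those of the 5 Hom libraries. The libraries Hom of family 3, Het of family 1 and Het of family 3 stood apart. Deviations from each gene's median over the 18 libraries, which include genotype differences, had an SD on the log2 scale of 1.11, 0.733 and 0.730 in them. In the other 15 the SD was 0.266 to 0.377. Oocyte markers summed to 217 normalized CPM in Hom of family 3 and to at most 7.28 in any other library. Values with and without these 3 libraries and family 2 are given below.

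In Hom brains, tgm2l, adamts8 and tspan36 were higher than in every Het and every WT library, and tmprss4b was lower than in every one of them. Among the 20353 genes tested, all 6 Hom libraries lay above the 12 others for 0.757% and below them for 0.811%. A rise in Hom against WT passed the threshold, an adjusted p of 0.05 in edgeR's quasi-likelihood test, for 1.49% of genes, and a fall did so for 0.423%. For Hom against Het the shares were 1.19% higher and 0.801% lower. Since the 4 genes were picked from those at these extremes, nothing is read from their place there. The Hom libraries enter both comparisons. An unadjusted p under 0.05 was found for 2919 of the 20353 genes in Hom against WT and 4428 in Hom against Het. Counts of other genes at an unadjusted p below are to be read beside these. For reading the counts of other genes below, the shares of all genes called in Hom against WT were 4.77% higher and 3.29% lower without the 3 libraries that stood apart, 0.958% and 0.23% without family 2, and 3.38% and 1.8% in DESeq2.

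**Figure D1:**
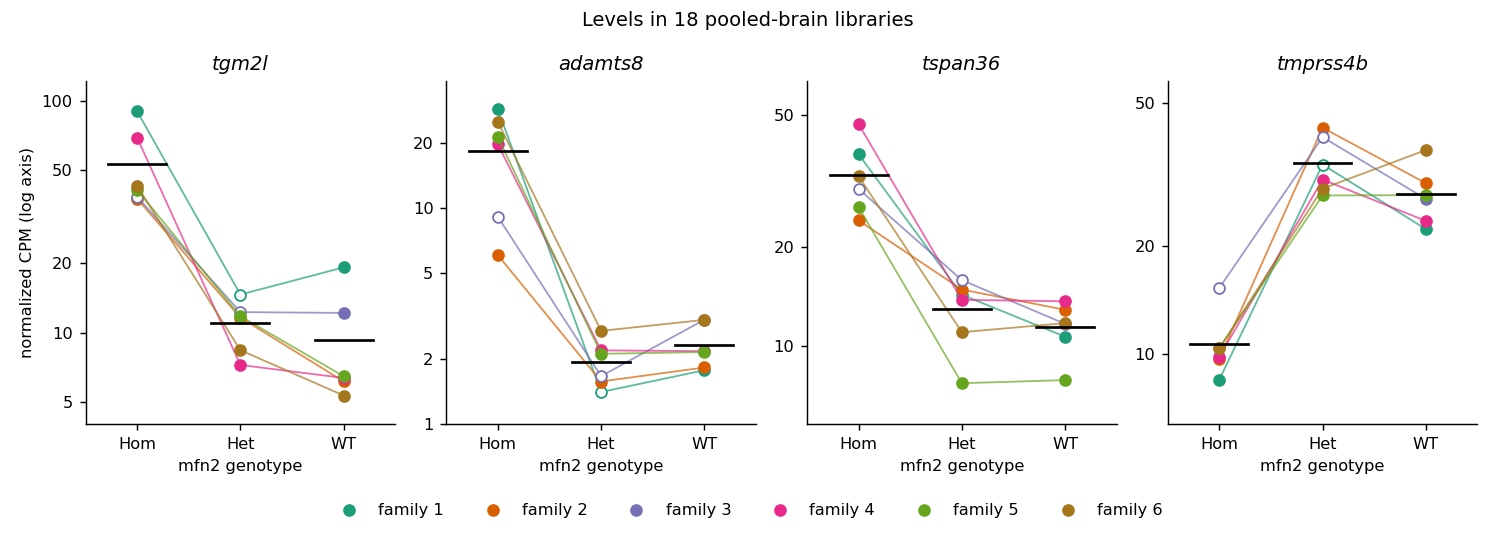
Normalized CPM (log axis) of the 4 genes by mfn2 genotype, with 6 libraries each for Hom, Het and WT, joined by family. Black bars are means, and open points are the 3 libraries that stood apart; the Hom points of tgm2l (37.8 to 90.0), adamts8 (6.05 to 28.5) and tspan36 (24.0 to 47.0) lie above all others, and those of tmprss4b (8.47 to 15.3) lie below.

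The transglutaminase gene tgm2l carries the name of a gene like tissue transglutaminase, the calcium-dependent, widely expressed member of its family. Its lowest, median and highest levels were 37.8, 42.1 and 90.0 normalized CPM in Hom, 7.25, 11.7 and 14.6 in Het, and 5.35, 6.42 and 19.1 in WT. The raw counts behind them were 775 to 2787 reads in Hom, 201 to 382 in Het and 139 to 483 in WT. Families 1 and 4 were high in Hom, at 90.0 and 69.3, while the other 4 Hom libraries lay between 37.8 and 42.9. The mean was 53.3 ± 21.5 in Hom, 10.97 ± 2.69 in Het and 9.27 ± 5.41 in WT (SD, n = 6 each).

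The fitted difference in tgm2l was 2.61 ± 0.24 (SE) on the log2 scale in Hom against WT, or 6.12-fold, with a 95% interval of 2.098 to 3.126. For Hom against Het it was 2.24 ± 0.23, or 4.73-fold. Within families the Hom to WT ratio ran from 3.17 in family 3 to 10.9 in family 4. WT and Het levels overlapped, and 4 of the 6 WT libraries lay below every Het library.

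The metalloprotease gene adamts8 is known in mammals as a protease with thrombospondin-type repeats that can slow the growth of vessels. It was scarce outside Hom, with lowest, median and highest levels of 6.05, 20.4 and 28.5 normalized CPM in Hom, 1.41, 1.90 and 2.71 in Het, and 1.78, 2.17 and 3.05 in WT. Raw counts were 163 to 883 in Hom, 37 to 68 in Het and 45 to 91 in WT. The Hom libraries of families 2 and 3 were low, at 6.05 and 9.10, and the other 4 lay between 19.7 and 28.5. Means were 18.2 ± 8.87 in Hom, 1.95 ± 0.483 in Het and 2.34 ± 0.569 in WT (SD, n = 6 each).

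The fit put adamts8 at a log2 fold change of 2.85 ± 0.30 (SE) in Hom against WT, or 7.19-fold, with a 95% interval of 2.199 to 3.494, and 3.14 ± 0.30 for Hom against Het, or 8.80-fold. The Hom to WT ratio spread widely over families and ran from 2.99 in family 3 and 3.30 in family 2 to 16.03 in family 1. Without the 3 libraries that stood apart and family 2 together, the Hom against WT value was 3.37 ± 0.16. A second gene ID carries the same symbol, ENSDARG00000058252, with 0 to 16 reads in the 18 libraries, too few to be tested. How reads that fit more than 1 place were counted is not given in the sources used here, so a share of either gene's reads could belong to its namesake.

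The serine protease gene tmprss4b encodes a relative of human TMPRSS4, a surface protease best known from epithelia and tumours. Its lowest, median and highest levels were 8.47, 10.1 and 15.3 normalized CPM in Hom, 27.6, 32.2 and 42.7 in Het, and 22.3, 27.4 and 37.0 in WT. Raw counts were 261 to 307 in Hom, 691 to 1106 in Het and 563 to 1273 in WT. In Hom, 5 libraries lay between 8.47 and 10.4, and the library of family 3, among those that stood apart, had 15.3. Means were 10.7 ± 2.36 in Hom, 34.0 ± 6.20 in Het and 27.9 ± 5.27 in WT (SD, n = 6 each).

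The fitted log2 value of tmprss4b was -1.40 ± 0.14 (SE) in Hom against WT, a level 2.63-fold lower, with a 95% interval of -1.71 to -1.09. Against Het it was -1.68 ± 0.15, or 3.21-fold lower. Within families the level was between 1.77-fold and 3.57-fold lower in Hom than in WT. Without the 3 libraries that stood apart the Hom mean was 9.74 ± 0.777 (SD, n = 5), and the log2 fold change against WT was -1.50 ± 0.12.

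The tetraspanin gene tspan36 is known in zebrafish from pigment cells of the skin. Its lowest, median and highest levels were 24.0, 31.3 and 47.0 normalized CPM in Hom, 7.72, 14.1 and 15.9 in Het, and 7.89, 11.7 and 13.7 in WT. Raw counts were 602 to 1376 in Hom, 193 to 436 in Het and 201 to 548 in WT. The Hom libraries spread evenly, with family 4 highest and family 2 lowest, whereas in Het and in WT the library of family 5 was the lowest, at 7.72 and 7.89. Means were 33.0 ± 8.45 in Hom, 12.9 ± 3.02 in Het and 11.4 ± 2.02 in WT (SD, n = 6 each).

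The fit put tspan36 at 1.53 ± 0.15 (SE) on the log2 scale in Hom against WT, or 2.89-fold, with a 95% interval of 1.21 to 1.85, and 1.36 ± 0.15 for Hom against Het, or 2.57-fold. Hom to WT ratios within families ran from 1.87 in family 2 to 3.57 in family 1. Leaving out the 3 libraries that stood apart and family 2 together gave 1.72 ± 0.087 for Hom against WT. In the GRCz12tu annotation of RefSeq tspan36 lies on the same chromosome as mfn2, and tgm2l and tmprss4b do not; adamts8 was not matched there. Any part played by alleles inherited along with the mfn2 mutation was not tested.

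In Het against WT none of the 4 genes passed the test, and the order of Het and WT differed among the genes. The log2 fold changes were 0.37 ± 0.23 for tgm2l (higher in 5 of 6 families), -0.29 ± 0.29 for adamts8 (lower in 5 of 6), 0.28 ± 0.14 for tmprss4b (higher in 4 of 6) and 0.17 ± 0.14 for tspan36 (higher in 4 of 6). All had an adjusted p of 0.903 in edgeR's quasi-likelihood test, with unadjusted p-values of 0.127, 0.334, 0.0661 and 0.265 in the same order. The 95% intervals were -0.12 to 0.86 for tgm2l, -0.92 to 0.34 for adamts8, -0.02 to 0.59 for tmprss4b and -0.14 to 0.48 for tspan36. A rise of adamts8 above 0.34, or of tspan36 above 0.48, on the log2 scale thus lies outside those intervals. For adamts8 and tmprss4b the Het value had the opposite sign to the Hom value, both taken against the same WT libraries. Family 2, where mfn2 went against the labels, had the largest Het to WT ratio of tgm2l (1.89) and a ratio of 1.43 for tmprss4b. Without family 2 the tgm2l value was 0.26 ± 0.25. Without the 3 libraries that stood apart the adamts8 value was 0.00 ± 0.37, and without those and family 2 it was 0.06 ± 0.18 and that of tspan36 was -0.01 ± 0.098. This comparison called 0% of all genes after adjustment in edgeR, 524 genes at an unadjusted p under 0.05, and 2 genes after adjustment in DESeq2.

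**Figure D2:**
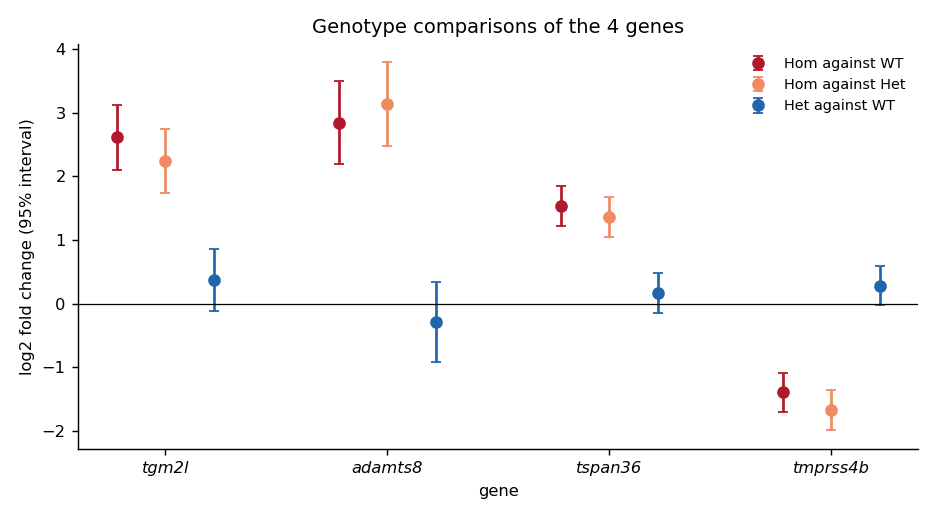
Log2 fold change (vertical axis) of the 4 genes for Hom against WT, Hom against Het and Het against WT, from 6 libraries a genotype, with 95% intervals. The Hom comparisons, which chose the genes, lie at 1.36 or above for tgm2l, adamts8 and tspan36 and at -1.40 or below for tmprss4b. Their intervals take no account of that choice. All 4 intervals of Het against WT include 0.

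Differences among families passed the test in none of the 4 genes in edgeR when all 18 libraries were used, in a fit where 1.91% of genes were called. The adjusted p over the 6 families in edgeR's quasi-likelihood test was 0.217 for tgm2l, 0.631 for adamts8, 0.628 for tmprss4b and 0.311 for tspan36. The geometric mean of tgm2l over the 3 genotypes was highest in family 1, at 29.4 normalized CPM, and lowest in family 6, at 12.6. For tspan36 it was highest in family 4, at 20.8, and lowest in family 5, at 11.8. DESeq2 on all 18 libraries called tgm2l (adjusted p = 0.0214) and none of the other 3. That fit called 1975 of the 20353 genes tested. Without the 3 libraries that stood apart, tgm2l passed in edgeR (adjusted p = 0.025), and without those and family 2 both tgm2l (0.0471) and tspan36 (0.00816) did. Both settings also called many more genes than the edgeR fit to all libraries, as listed at the end.

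The 4 genes did not share 1 order of families over all 18 libraries, but in Hom the 3 raised genes shared part of one. Among Hom libraries family 2 was lowest for tgm2l (37.8 normalized CPM), adamts8 (6.05) and tspan36 (24.0). Family 1 was highest for tgm2l (90.0) and adamts8 (28.5), and family 4 was highest for tspan36 (47.0). Over the deviations of 18 libraries from their genotype means, on the log2 scale, Pearson's r was 0.18 for tgm2l with adamts8, 0.26 for tgm2l with tspan36, 0.23 for adamts8 with tspan36, and -0.39, -0.28 and 0.19 for tmprss4b with tgm2l, adamts8 and tspan36. With the genotype differences left in, the same pairs had r of 0.81 to 0.91 in size, positive among the 3 genes high in Hom and negative with tmprss4b, which follows from how the genes were chosen. These r values are descriptions over libraries that share families and depth.

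The relatives of the 4 genes, found by the stem of the symbol, mostly did not pass the edgeR test in any genotype comparison. Of 86 relatives listed, 73 could be tested, and 1 passed in Hom against WT, where the share of all genes called was given above. None of 9 transglutaminases, 16 ADAMTS proteases and 12 type II transmembrane serine proteases passed in Hom against WT, Het against WT or Hom against Het in edgeR. In Hom against WT 1, 1 and 2 of them had an unadjusted p under 0.05, beside 2919 of all 20353 genes. DESeq2 called 0, 0 and 2. In Hom against Het 0, 3 and 2 had an unadjusted p under 0.05, beside 4428 of all genes. DESeq2 called 0, 1 and 0. The ADAMTS protease it called was ADAMTS10 (log2 fold change 0.63, DESeq2 adjusted p = 0.0184, higher in 6 of 6 families, edgeR adjusted p = 0.0886). Of 36 tetraspanins 1 was lower in Hom against WT, and 1 was higher and 2 were lower in Hom against Het. In Hom against WT 3 were higher and 2 lower without the 3 libraries that stood apart, where 4.77% and 3.29% of all genes were, and 0 were called without family 2 (4 of 36 had an unadjusted p under 0.05 with all libraries, and DESeq2 called 1 higher and 2 lower). The median log2 fold change for Hom against WT was 0.23 over the transglutaminases, 0.23 over the ADAMTS proteases, 0.32 over the serine proteases and -0.05 over the tetraspanins, beside 0.04 over all genes tested.

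The tetraspanin that fell in both comparisons was tspan34b, with 0.817 ± 0.306 normalized CPM in Hom, 2.45 ± 0.707 in Het and 2.04 ± 0.604 in WT (SD, n = 6 each). The difference on the log2 scale was -1.33 ± 0.24 for Hom against WT (edgeR adjusted p = 0.0129, lower in 6 of 6 families) and -1.59 ± 0.24 for Hom against Het (edgeR adjusted p = 0.00461). The first of these calls was lost without Hom of family 5 (adjusted p = 0.0525) and without family 2 (0.0513). A gene called tspan2b averaged 5.46 ± 2.11 normalized CPM in Hom, 1.81 ± 1.01 in Het and 2.41 ± 0.438 in WT (SD, n = 6 each). It rose in Hom against Het by 1.65 ± 0.37 on the log2 scale (edgeR adjusted p = 0.043), a call lost in 14 of 18 fits that left out a library, while in Hom against WT the value was 1.18 ± 0.36 (adjusted p = 0.14; 0.0136 without the 3 libraries that stood apart, and 0.0276 in DESeq2).

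CD81 (ENSDARG00000022437), a tetraspanin known in mammals as a partner of immune and growth receptors, moved the other way from tspan36. It averaged 29.8 ± 12.7 normalized CPM in Hom, 63.9 ± 26.2 in Het and 55.9 ± 17.9 in WT (SD, n = 6 each). In Hom against Het it fell by 1.04 on the log2 scale, SE 0.25 (edgeR adjusted p = 0.0492), and in Hom against WT the value was -0.87 ± 0.24 (adjusted p = 0.106). The Hom against Het call was lost in 16 of 18 fits that left out a library, and with no family block in the model (adjusted p = 0.084). In Hom against WT it passed without the 3 libraries that stood apart (adjusted p = 0.0325) and in DESeq2 (0.0144). A second CD81 entry, ENSDARG00000036080, had -0.07 ± 0.16 in Hom against WT (edgeR adjusted p = 0.872) and -0.17 in Hom against Het.

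Among the relatives that did not pass, TGM2 and tmprss4a are close in name to tgm2l and tmprss4b. The gene st14 shares no name with the 4 genes. It had the lowest adjusted p in Hom against WT among the 12 type II transmembrane serine proteases tested. All were picked after their values were seen. TGM2 (ENSDARG00000074094) averaged 6.81 ± 1.46 normalized CPM in Hom, 5.68 ± 0.911 in Het and 5.23 ± 0.807 in WT (SD, n = 6 each), with a log2 fold change of 0.38 ± 0.16 for Hom against WT (edgeR adjusted p = 0.304). The sister gene tmprss4a had a value of opposite sign to tmprss4b, at 1.29 ± 0.41 for Hom against WT (edgeR adjusted p = 0.156; 0.0288 without the 3 libraries that stood apart), from means of only 0.788 ± 0.179 in Hom and 0.388 ± 0.344 in WT. The gene st14, which encodes matriptase, a serine protease of epithelia, had 0.77 ± 0.18 (edgeR adjusted p = 0.052; 0.0227 without those 3 libraries). In Hom against WT the like-named st14a had 0.19 ± 0.45 (edgeR adjusted p = 0.867) and st14b had 0.92 ± 0.54 (edgeR adjusted p = 0.483). A second TGM2 entry, ENSDARG00000070157, had at most 5 reads in a library.

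The relatives of highest mean level were also not called in Hom against WT. TSPAN7, a tetraspanin of neurons, averaged 817 ± 155 normalized CPM in Hom and 959 ± 41.8 in WT (SD, n = 6 each; log2 fold change -0.24 ± 0.14, edgeR adjusted p = 0.461). The values were -0.16 ± 0.24 for ADAMTS18 (adjusted p = 0.789) and 0.25 ± 0.31 for tmprss15 (adjusted p = 0.738), whose human namesake is the gut protease enteropeptidase. The highest transglutaminase, tgm1l3, owed its rank to a Het library with 793 normalized CPM, while its Hom libraries lay between 0.981 and 2.52 and its WT libraries between 0.634 and 1.39.

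**Figure D3:**
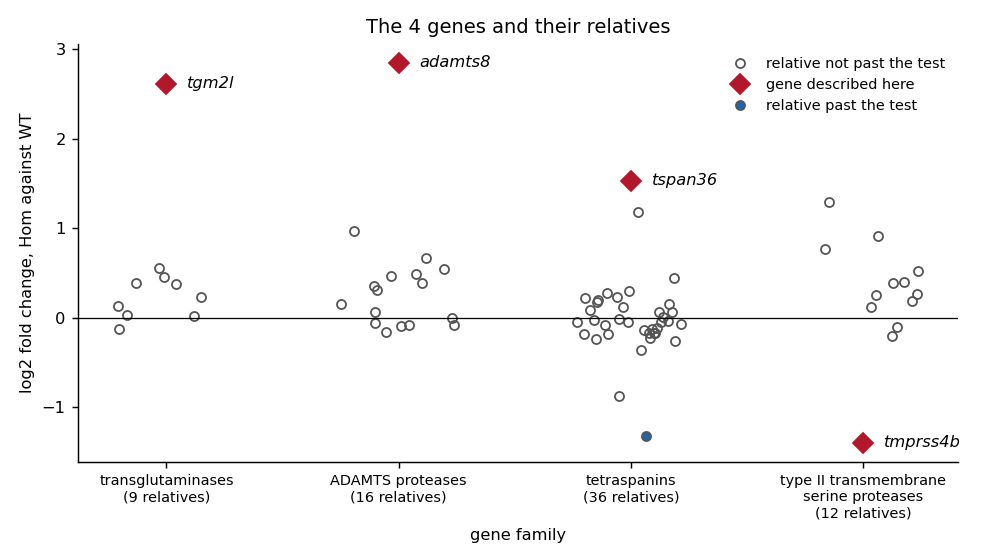
Log2 fold change of Hom against WT (vertical axis) for tgm2l, adamts8, tspan36 and tmprss4b (diamonds) and their tested relatives (circles, filled where the adjusted p is under 0.05), by family. The 3 raised genes lie above every tested relative of their own family and tmprss4b lies below its own, a place set by how the genes were chosen; tspan34b, at -1.33, is the filled circle.

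Lists of genes that work with these families had few members past the test. Of 23 partners and substrates of tissue transglutaminase, 1 rose in Hom against WT and 0 fell, beside 1.49% of all genes higher, with a median log2 fold change of 0.36 (5 rose without the 3 libraries that stood apart, and 1 without family 2 or in DESeq2). In the fit to all libraries it was FN1 (ENSDARG00000006526), which encodes fibronectin, a matrix glycoprotein crosslinked by tissue transglutaminase. FN1 averaged 43.9 ± 14.9 normalized CPM in Hom, 26.4 ± 4.51 in Het and 21.2 ± 4.29 in WT (SD, n = 6 each). The difference on the log2 scale was 1.00 ± 0.13 for Hom against WT (edgeR adjusted p = 0.00169, higher in 6 of 6 families) and 0.68 ± 0.13 for Hom against Het (edgeR adjusted p = 0.0217). The second call was lost in 7 of 18 fits that left out a library, and with no family block (adjusted p = 0.071).

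Of 22 lecticans, link proteins and metalloprotease inhibitors (TIMPs), which are substrates, neighbours and inhibitors of ADAMTS proteases, 2 fell in Hom against WT and 0 rose, beside 0.423% of all genes lower, with a median of 0.08 (3 fell without the 3 libraries or in DESeq2, and 1 without family 2). Both encode link proteins that tie hyaluronan to lecticans, HAPLN2 being known at nodes of Ranvier and HAPLN4 in perineuronal nets in mammals. HAPLN2 averaged 6.47 ± 3.20 normalized CPM in Hom, 20.8 ± 3.02 in Het and 20.7 ± 4.48 in WT (SD, n = 6 each), and the Hom libraries did not overlap the others. The log2 fold change was -1.75 ± 0.25 for Hom against WT (edgeR adjusted p = 0.00292) and -1.78 ± 0.25 for Hom against Het (edgeR adjusted p = 0.00318). HAPLN4 averaged 22.6 ± 8.24 in Hom, 54.0 ± 14.3 in Het and 50.4 ± 11.7 in WT (SD, n = 6 each), with -1.19 ± 0.22 for Hom against WT (edgeR adjusted p = 0.0167) and -1.28 ± 0.23 for Hom against Het (edgeR adjusted p = 0.0113). The HAPLN4 calls were lost without family 2 (adjusted p = 0.0681 and 0.0643), and that against WT also without Hom of family 6 (0.0547) or WT of family 5 (0.0598).

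Summed oligodendrocyte markers, the cells that make myelin beside these nodes, ran from 7855 to 19780 normalized CPM in Hom, 15970 to 29850 in Het and 14380 to 22110 in WT, with 0 of 14 past the test in Hom against WT in edgeR and in DESeq2 (3 at an unadjusted p under 0.05). In Hom against Het edgeR called 0 (5 at an unadjusted p under 0.05) and DESeq2 called 4 lower, where it called 4.11% of all genes lower. Without the 3 libraries that stood apart edgeR called 1 higher and 1 lower in Hom against WT. Their part in the HAPLN2 and HAPLN4 values was not tested. In whole-brain pools a smaller number of cells of a type and less RNA per cell cannot be told apart. None of 18 cell-surface serine protease inhibitors and receptors passed in Hom against WT, with a median of 0.36 and a lowest adjusted p of 0.0546 in edgeR (5 at an unadjusted p under 0.05, and 3 past the test in DESeq2). None of 15 tetraspanin partners passed, with a median of 0.14 (1 at an unadjusted p under 0.05, and 1 past the test in DESeq2).

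Pigment cell markers were examined beside tspan36. Of 25 tested, 1 rose in Hom against WT and 0 fell in edgeR, beside 1.49% and 0.423% of all genes. The median log2 fold change was 0.21, and 7 had an unadjusted p under 0.05, beside 2919 of the 20353 genes tested. In Hom against Het 2 rose and 0 fell in edgeR, beside 1.19% and 0.801% of all genes. For Hom against WT DESeq2 called 4 higher and 1 lower, beside 3.38% and 1.8% of all genes. In the same comparison edgeR called 2 higher without the 3 libraries that stood apart, beside 4.77% of all genes. Without family 2 it called 1 higher, beside 0.958%. Their summed level was 122 to 137 normalized CPM in 5 Hom libraries and 824 in Hom of family 3, 73.5 to 120 in Het and 102 to 122 in WT. Much of that sum was SOX10, which oligodendrocytes express too, at 146 ± 233 in Hom and 43.8 ± 4.41 in WT (SD, n = 6 each). No marker of the list of 28 was at 0 in all libraries, and 2 were at 0 in some. TYR, the enzyme that starts melanin synthesis, averaged 0.00658 normalized CPM in Het and 0.0305 in WT, and 0.656 ± 1.51 (SD, n = 6) in Hom. It had too few reads to be tested, and its SD in Hom exceeded the mean, so no rise is read from it.

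The marker that rose was pmela, a structural protein of the melanosome, with 1.81 ± 0.371 normalized CPM in Hom, 0.862 ± 0.206 in Het and 0.781 ± 0.0799 in WT (SD, n = 6 each). The difference on the log2 scale was 1.18 ± 0.18 for Hom against WT (edgeR adjusted p = 0.00422, higher in 6 of 6 families) and 1.07 ± 0.18 for Hom against Het (edgeR adjusted p = 0.00829). MITF (ENSDARG00000003732), a transcription factor of pigment cells and some other cell types, had 1.33 ± 0.506 in Hom, 0.260 ± 0.127 in Het and 0.501 ± 0.172 in WT (SD, n = 6 each). It rose in Hom against Het by 2.32 ± 0.37 (edgeR adjusted p = 0.00548) and had 1.40 ± 0.34 in Hom against WT (edgeR adjusted p = 0.0574, and 0.0404 with no family block). Other markers of the list had values of the opposite sign in Hom against WT. The like-named pmelb had -1.63 ± 0.67 (edgeR adjusted p = 0.287), from means of 0.931 ± 1.32 in Hom and 2.07 ± 1.11 in WT. MLPH had -0.72 ± 0.18 (edgeR adjusted p = 0.0719) and aox5 had -0.72 ± 0.37 (edgeR adjusted p = 0.411). The part of pigment cells in the tspan36 values was not tested.

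Other markers that moved with Hom were those of microglia and macrophages, of which 7 of 25 rose and 0 fell in Hom against WT, with a median log2 fold change of 0.54. Among all genes 1.49% rose. The count was 16 higher and 1 lower without the 3 libraries that stood apart, where 4.77% of all genes rose, 4 higher without family 2, where 0.958% did, and 10 higher in DESeq2. The calls of apoeb, grna and SLC7A7 were lost in 10, 8 and 8 of the 18 fits that left out a library. Their summed level was 1860 to 2509 normalized CPM in 5 Hom libraries but 870 in Hom of family 3, 1111 to 1761 in Het and 1099 to 1501 in WT. Endothelium and mural cell markers had 2 of 23 higher (SLC2A1, ENSDARG00000007412, and plvapb), radial glia markers had 1 of 21 higher (nes), and neuron markers had 2 of 22 lower (nefla and nefma). Among all genes 1.49% were higher and 0.423% lower in that comparison. The median log2 fold change in Hom against WT was 0.33, -0.26 and -0.16 over these lists in the same order, opposite in sign to nes for radial glia. Summed radial glia markers were 5246 to 8064 normalized CPM in Hom, 6928 to 8924 in Het and 6908 to 9333 in WT. Without the 3 libraries that stood apart the counts past the test were 5 higher, 1 higher with 1 lower, and 8 lower, and without family 2 they were 1 higher, 1 higher and 2 lower. Of all genes 4.77% were higher and 3.29% lower without the 3 libraries, and 0.958% and 0.23% without family 2. The plvapb call was lost without family 2 (edgeR adjusted p = 0.0526) and in 4 of 18 fits that left out a library. Epithelium and skin (21 tested), pineal and retinal pigment epithelium (20), meningeal fibroblast (18), ependyma and choroid plexus (16), oocyte (2) and blood (9) markers had 0 past the test in that comparison in edgeR, but without the 3 libraries 2 epithelium and 3 meningeal genes were higher and 1 blood gene was lower. At an unadjusted p under 0.05 these lists had 0, 1, 4, 0, 0 and 1 genes in the same order, and DESeq2 called 1 meningeal gene and 0 of the others. Summed epithelium markers, the tissue in which human TMPRSS4 is known, were 722 to 1287 in Hom, 373 to 2685 in Het and 423 to 1007 in WT. The part of any of these cell types in the levels of the 4 genes was not tested.

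The likeness rankings left out tested genes with no symbol, or with a clone name or similar placeholder for one. The genes whose levels ran most like each of the 4 were ranked by Pearson's r of log2(normalized CPM + 0.5) over the 18 libraries. For tgm2l they were SLC2A1 (ENSDARG00000007412), a glucose transporter of brain vessels, with r = 0.92, clcf1, a cytokine, with 0.91, and cxcl18b, a chemokine, with 0.91. For adamts8 they were ocstamp, known in mammals for cell fusion of osteoclasts, with 0.95, pmela with 0.94 and the same SLC2A1 with 0.94. For tspan36 they were tnfb, a tumour necrosis factor, with 0.95, OCIAD2 with 0.94 and rps27l with 0.94. For tmprss4b they were fxyd7, a modulator of the sodium pump in brain, with 0.95, eef1a2, a translation elongation factor of neurons and muscle, with 0.94 and nefla, the neurofilament light chain, with 0.94. All 12 passed the test in Hom against WT, so these r values largely restate the genotype difference. Ranked by Spearman's rho, 2 of the 12 stayed among the first 3 for their gene, and without the 3 libraries that stood apart 5 did.

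With genotype means removed, the first of the ranked genes for tspan36 was CD81 (ENSDARG00000022437). It had r = 0.89 and rho = 0.87 over 18 libraries, and r = 0.93 without the 3 libraries that stood apart. Within a genotype both tetraspanins tended to be high or low in the same libraries, which share family and depth, although the Hom libraries were high in tspan36 and low in CD81. In Het and WT the library of family 5 was lowest for both. The next for tspan36 were slc52a3-2a (0.88) and C25H11orf96 (0.87). The leading gene was grk1b for tgm2l (0.80), pkd1b for adamts8 (0.82) and PARVB for tmprss4b (0.83), followed by ABI2 (ENSDARG00000058207, 0.75) and CHST13 (0.74), by ADHFE1 (0.76) and MSH3 (0.76), and by CA7 (0.81) and cyp2p10 (0.80). Of these 12, 5 stayed among the first 3 by Spearman's rho and 2 without the 3 libraries.

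**Figure D4:**
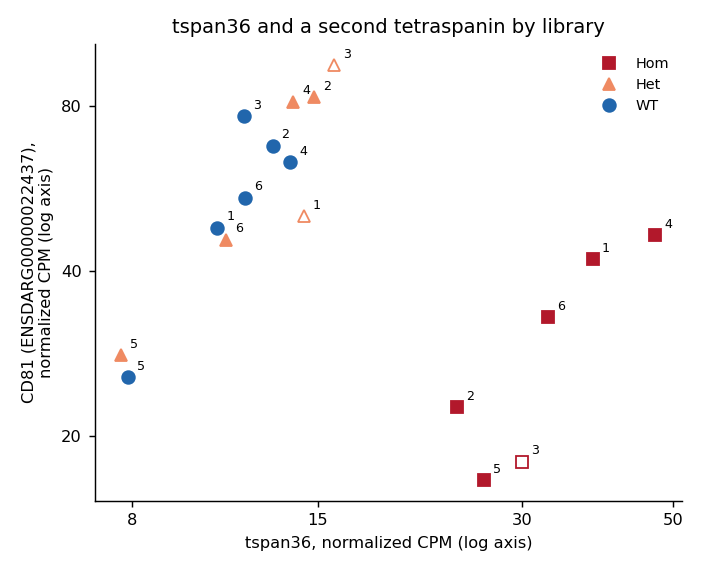
Levels of tspan36 (horizontal axis) and CD81 (ENSDARG00000022437, vertical axis), both in normalized CPM on log axes, in 18 libraries numbered by family, with squares for Hom, triangles for Het, circles for WT and open symbols for the 3 libraries that stood apart. Hom libraries lie to the right at 24.0 to 47.0 for tspan36 and, for CD81, at 16.6 to 46.4, and within each genotype libraries high in tspan36 tend to be high in CD81.

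Genes beside tgm2l, tspan36 and tmprss4b in the GRCz12tu annotation were not called in Hom against WT. For each of these 3 tested genes on either side were taken, the nearest whose symbol or synonym there matched only 1 gene ID. Genes without such a match were passed over, so nearer tested genes may be missing. Of the 18 taken, 0 passed the test (edgeR adjusted p from 0.289 to 0.962). With 1.49% of all genes higher and 0.423% lower, this does not set them apart from other genes. In that annotation tgm2l overlaps 9 other coding genes and tmprss4b overlaps 1, while tspan36 overlaps 0. These overlapping genes are not among the 18, and no values are given for them. Whether counting used the strand is not given in the sources used here, so some reads at tgm2l and tmprss4b could stem from genes that overlap them.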

How the data were processed

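The authors deposited raw counts per gene, as whole numbers, for the 18 libraries. Poly(A) RNA libraries came from a NEBNext Ultra kit, per the labels' protocols. Alignment and counting tools were listed in the submitters' processing notes as STAR 2.7.0a and Subread 1.5.2 featureCounts, and the build as GRCz11. Annotation release, strandedness of counting and handling of multiply mapped reads are not given in the sources used. Symbols were paired with 28988 of 32057 IDs, in upper case where the table of names has them so.

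The quasi-likelihood test of edgeR 4.0.16 (R 4.3.3) was run on the counts after filterByExpr by genotype (minimum count 10, minimum total 15), with TMM scaling, genotype and family in the model, a prior count of 0.125, and Benjamini-Hochberg adjustment over 20353 genes at 0.05. SE is the log2 fold change over the square root of F. Direction in a family used log2(normalized CPM + 0.5). Family was kept as a block since a family shares its parents and mating, per the labels. Same-family libraries had a median correlation of deviations of 0.184 (18 pairs, 4 of them under 0.1). Over 90 pairs of other families and genotypes it was -0.0674. Deviations from a genotype mean cancel out within the genotype, so a positive value in same-family pairs pushes the other pairs below it. The second value is thus no independent baseline. The fit was tested on simulated data. DESeq2 1.42.0 and other scalings, filters and sample sets were alternatives.

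The 4 genes, the lists of relatives, partners and cell markers, and the tests were chosen with earlier results of these data known. Genes named are the 4, up to 6 per list past the test in any genotype comparison, the relative of highest mean level per family, the 3 genes most like each, and mfn2; cell-type lists serve as counts and sums. TGM2, tmprss4a, st14 and the marker genes named from cell-type lists fall outside that rule and were chosen after their values were seen. Counting error and family differences both enter the SD. No sequence of the 4 genes was used here.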

Additional observations from a re-analysis of the deposited data

Results flagged for a closer look

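The tmprss4b level of Hom of family 3, 15.3 normalized CPM, lay far from the other 5 Hom libraries, at 8.47 to 10.4, with a gap of 0.719 of the group's range. The mfn2 level of WT of family 2, 75.2 normalized CPM, lay far from the other 5 WT libraries, at 119.9 to 140.2, with a gap of 0.687 of the range. Groups of 6 were picked out where that share exceeded Dixon's critical value for 6 samples; 15 groups were examined, and chance alone picks out about 1 in 20.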

How the results depend on the processing

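All 216 alternative values of the 4 genes in the Hom comparisons kept their direction, which the choice of genes largely fixed in advance. Over them the log2 fold change against WT ran from 2.42 to 2.85 for tgm2l, 2.59 to 3.37 for adamts8, 1.47 to 1.72 for tspan36 and -1.50 to -1.28 for tmprss4b. Of 108 alternative Het against WT values 0 passed the test (lowest adjusted p 0.537), but adamts8 changed sign to 0.0005 without the 3 libraries that stood apart and 0.0579 without those and family 2 (chosen after seeing the data), and tspan36 to -0.0096 under that second setting.

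With no family block, tgm2l had 2.53 for Hom against WT and 0.25 for Het against WT, no call among the 4 genes changed, and the counts of genes past the test were 341 (Hom against WT) and 423 (Hom against Het).

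Differences among families passed for tgm2l without the 3 libraries (adjusted p 0.025), without those and family 2 (0.0471) and in DESeq2 (0.0214), and for tspan36 without the 3 libraries and family 2 (0.00816).

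Relatives past the test in Hom against WT numbered 1, but 2 with RLE scaling, library totals or a minimum-CPM filter, 7 without the 3 libraries, 0 without family 2, 5 without both, 5 in DESeq2 and 0 to 3 when a library was left out. In Hom against Het they numbered 3, but 1 without family 2 and 1 to 3 when a library was left out. Without the 3 libraries they were 2 tetraspanins higher and 2 lower. In DESeq2 they were 1 ADAMTS protease and 1 tetraspanin higher and 2 tetraspanins lower.

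Genes past the test in Hom against WT numbered 390, but 1658 without the 3 libraries, 243 without family 2, 1216 without both, 1054 in DESeq2 and 196 to 706 when a library was left out. Hom against Het gave 406, but 981, 178 and 1626 without the 3 libraries, without family 2 and in DESeq2, and 195 to 662 when a library was left out. Het against WT gave 0, but 2 without both and 2 in DESeq2. Families gave 389, but 2207 without the 3 libraries, 209 without family 2, 1397 without both, 1975 in DESeq2 and 215 to 952 when a library was left out. The cause of these shifts was not tested. Depth limits adamts8 most, with 37 to 91 reads in Het and WT.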
